A study of Mus musculus with 6 samples.

Results

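Open chromatin was followed around Col2a1, the gene of the type II collagen chain, in ATDC5 cells at day 0, day 3 and day 10 of differentiation. Its members here are the ATAC-seq peaks whose summit lies on chromosome 15 from 97810000 to 97980000, read as GRCm39, a stretch of 170 kb that holds the gene with a flank on each side. There were 387 such peaks of 1455940 over the 6 deposited lists. The gene spans about 97873483 to 97902576 on the minus strand, which is 29094 bases, so its start is at the higher position. Distances below are counted from that start along the direction of transcription, positive into the gene and beyond its end, negative upstream. Exon and intron positions of that build were not used here.

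ATDC5 is a mouse line of cartilage precursor cells, labelled as pre-chondrocyte. ATAC-seq marks open chromatin by the sites where the Tn5 transposase can insert adapters. The Day0 libraries carry the label control, and the Day3 and Day10 libraries the label differentiation. For all 3 days the cells were plated as dense droplets and, per the labels' protocols, differentiation used beta-glycerophosphate and ascorbate-2-phosphate. Each day has 2 libraries, described in the labels as independent biological replicates of this single line, and the labels give no other difference between the groups. The lists held 164642 and 164960 peaks for Day0, 177751 and 177111 for Day3, and 381376 and 390100 for Day10. The lists hold peaks and no transcript levels, so the labelled cell type could not be checked against marker expression.

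Type II collagen is a homotrimer that forms the main fibrils of hyaline cartilage, and Col2a1 is a defining gene of the chondrocyte. It is driven by the transcription factor SOX9 together with SOX5 and SOX6, through enhancers that include a well-studied element in the first intron. In the RefSeq gene table for GRCm38.p6, used only for the order of genes, the non-coding Gm46536 lies within the Col2a1 span. Tmem106c, the non-coding Gm52171 and then Vdr, the vitamin D receptor gene, follow beyond the Col2a1 end. The non-coding Gm41395 and then Senp1, a SUMO protease gene, lie upstream of its start. ATAC-seq has no strand, so signal in the span cannot be divided between Col2a1 and Gm46536.

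The number of listed peaks in the locus was 28 and 32 for Day0, 50 and 44 for Day3, and 115 and 118 for Day10. The days did not overlap. The mean on Day10 was 3.88 times that on Day0, while the lists over the whole genome had 2.34 times the Day0 number on Day10. The mean on Day3 was 1.57 times that on Day0, against 1.08 times for the whole lists. Among the 50000 strongest peaks of each library, ranked by the authors' -log10 p, the locus held 10 peaks in each Day0 library, 8 in each Day3 library, and 16 and 17 for Day10. The excess on Day3 over Day0 thus turned to 0.8 times with equal numbers of peaks. The bases of the locus covered by these strongest peaks were still 1.43 times as many on Day3 as on Day0.

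**Figure D1:**
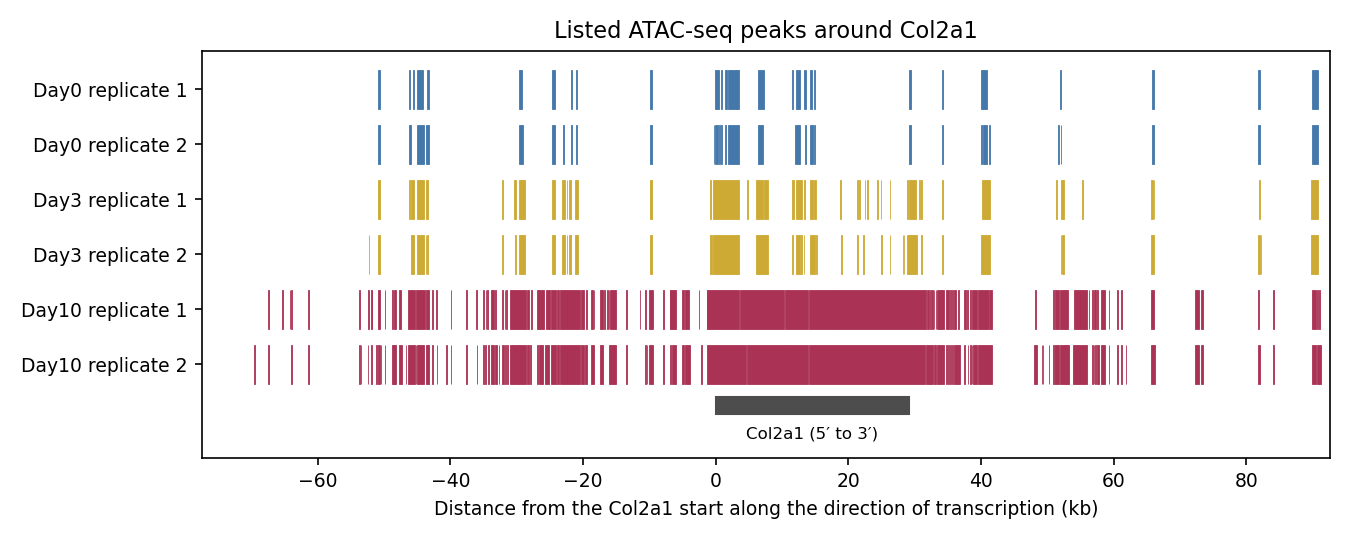
Listed peaks in the 6 libraries, drawn as bars along the distance from the Col2a1 start in kb, with the gene as the grey bar below. Separate peaks within the gene on Day0 give way to nearly continuous cover of the gene in both Day10 libraries.

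Scattered peaks lay in the gene on Day0, and peaks covered almost all of it on Day10. Listed peaks covered 17.0% and 16.1% of the Col2a1 span for Day0, 29.3% and 28.8% for Day3, and 98.5% and 99.2% for Day10. The libraries of each day lay within 1 percentage point of each other, and the days did not overlap. The mean share on Day10 was 5.97 times that on Day0 and 3.4 times that on Day3. Only 449 and 223 bases of the span remained uncovered for Day10, against 24146 and 24402 for Day0. The longest gap on Day10 was 181 and 120 bases, against 14110 and 14129 bases on Day0.

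Fewer and wider peaks made up the cover on Day10. The gene was touched by 11 and 10 peaks for Day0, by 20 and 17 for Day3, and by 6 and 4 for Day10. Their median width was 403 and 336 bases on Day0, 155.5 and 160 on Day3, and 4237.5 and 6043 on Day10. The widest was 1145 and 1594 bases on Day0, 3910 and 3963 on Day3, and 13807 and 17443 on Day10. On Day10 the widest Col2a1 peak was the widest of all peaks on the assembled chromosomes in replicate 2 and the 2nd widest in replicate 1, where the widest measured 15237 bases. On Day3 the widest Col2a1 peak was already at place 56 and 41 by width, and on Day0 at place 5314 and 1654. Peaks touching the gene reached 2443 and 2430 bases past its end and 1275 and 1274 bases upstream of its start on Day10.

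The width of a listed peak can depend on sequencing depth and on the authors' threshold, and the total read numbers were not used here. The median width of the 50000 strongest peaks was 546 and 552 bases on Day0, 593 and 591 on Day3, and 644 and 671 on Day10, so these strong peaks were somewhat wider on Day10. Over all listed peaks the order was the reverse, with a median width of 230 and 233 bases on Day0, 210 and 213 on Day3, and 161 and 166 on Day10. The smallest listed width was 88 and 90 bases on Day0, 87 and 88 on Day3, and 68 and 72 on Day10. The part of these differences in the Col2a1 result was not tested. With the 50000 strongest peaks alone, 11.9% and 13.6% of the span was covered on Day0, 20.5% and 21.7% on Day3, and 97.1% and 99.2% on Day10. With peaks of a -log10 q of 10 or more, the share was 14.5% and 14.6% on Day0, 22.2% and 21.7% on Day3, and 98.5% and 99.2% on Day10.

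Cover was uneven along the gene before Day10. The span was divided into 3 equal segments. In the segment at the start, listed peaks covered 36.1% and 34.8% of the bases on Day0, 54.8% and 54.7% on Day3, and 99.6% and 99.6% on Day10. In the middle segment they covered 15% and 13.6% on Day0, 22.2% and 21.7% on Day3, and 95.8% and 98.1% on Day10. The segment at the gene end held no listed peak in either Day0 library, had 11.0% and 10.1% of its bases covered on Day3, and was covered over 100% of its bases in both Day10 libraries. None of the Day3 peaks in this end segment was among the 50000 strongest. Every base of it was covered by peaks of that class on Day10.

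**Figure D2:**
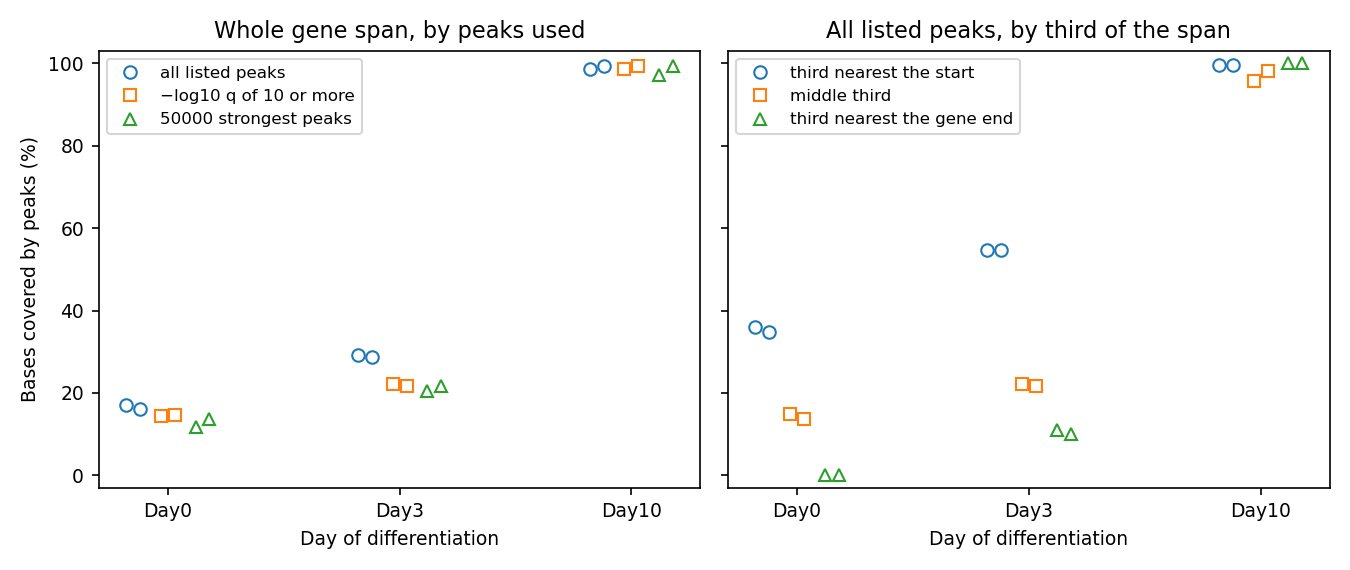
Percentage of bases covered by peaks on each day, for the whole Col2a1 span with all listed peaks, peaks of a -log10 q of 10 or more, or the 50000 strongest (left), and for 3 equal segments of the span with all listed peaks (right). Each point is a library. The segment at the gene end differs most between days, with 0% in both Day0 libraries and 100% in both Day10 libraries.

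Cover of the gene was set beside that of 90358 tiles of the same length over chromosomes 1 to 19 and X, leaving out those that overlap the locus. On Day10 the tiles were covered over 3.85% and 4.07% of their bases on average, against 2.12% and 2.14% on Day0. Of these tiles, 0 reached the cover of Col2a1 in either Day10 library, and the highest reached 94.6% and 94.3%. On Day0, 1.07% and 1.3% of the tiles were at least as covered as Col2a1, and on Day3 0.276% and 0.282%. The mean cover of Col2a1 on Day10 was 82.3 percentage points above that on Day0, and 1 tile had a larger difference. It lay on chromosome 8 from 106978639 to 107007732 and was chosen after its values were seen. That tile was covered over 94.6% and 94.3% of its bases on Day10, against 8.16% and 8.14% on Day0. Windows of the gene's length placed every 1 kb gave 2628842 positions, of which 3 were covered in both Day10 libraries to at least the lower of the Col2a1 shares, and all 3 lay at Col2a1. These shares describe the 6 lists and are not a test.

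**Figure D3:**
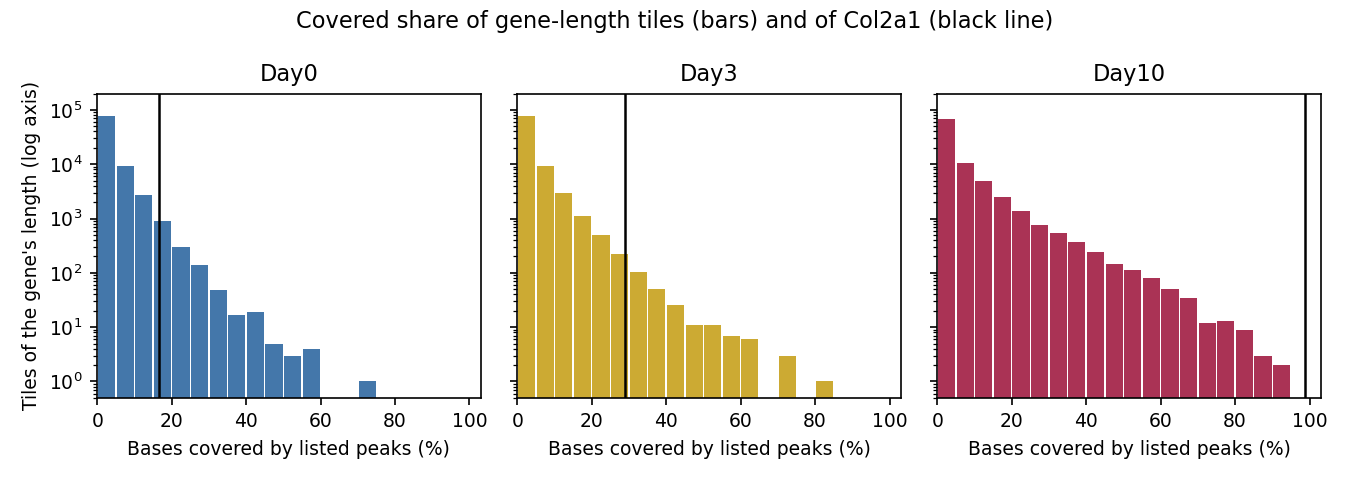
Number of gene-length tiles (log axis) by the percentage of their bases covered by listed peaks, averaged over the 2 libraries of each day, with Col2a1 as the black line. Col2a1 lies within the tail on Day0 and Day3 and beyond all 90358 tiles on Day10.

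Sites within the gene were compared by rank, since peaks of separate lists can be set side by side only among equal numbers of the strongest. Windows reaching 250 bases to each side of a summit were drawn from the 50000 strongest peaks of all libraries, which gave 78665 regions in the genome and 23 in the locus. Gained means a rank within 50000 in each library of the later day, with each library of the earlier day beyond 100000 or without a peak. Lost is the same rule with the days exchanged, and kept means a rank within 50000 in all 4 libraries. The rank is that of the best peak with its summit in the window or, under the overlap rule, of the best peak that overlaps it. The fold values given beside ranks are the authors' own values of fold over background for each peak.

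The start of the gene lay under a listed peak in every library. The peak over the start ranked 51771 and 44186 on Day0, 15252 and 10672 on Day3, and 3885 and 3308 on Day10. It was 550 and 489 bases wide on Day0, 3910 and 3963 on Day3, and 4846 and 5871 on Day10. Its summit was 178 and 218 bases into the gene on Day0 and 2626 and 2624 bases into it on Day3, when a single peak ran from the first kilobases of the gene across its start. On Day10 its summit was 233 and 231 bases upstream of the start. The authors' fold of these peaks was 16.3 and 19.1 on Day0, 31.1 and 35.6 on Day3, and 38.9 and 40.4 on Day10. The Day3 ranks and folds belong to the summits 2626 and 2624 bases into the gene. In the region around them, at 2.6 kb, the Day0 peaks had a fold of 34.4 and 34.7. No Day3 summit lay within 500 bases of the start, and the best within 1000 bases ranked 123125 and 95672. By summits the region at the start, from 97902557 to 97903057, was called gained on Day10 against Day0. Under the overlap rule it was not, since the Day0 ranks were better than 100000. Against Day3 it was gained by summits and kept under the overlap rule.

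The strongest Day0 peak within the gene lay 2.6 kb into it in replicate 1 and 12.5 kb into it in replicate 2. The region at 2.6 kb, from 97899702 to 97900202, held a summit at ranks 17013 and 17319 on Day0 and 15252 and 10672 on Day3. On Day10 it lay inside the peak whose summit was at the start, at ranks 3885 and 3308, and held no summit of its own. It was therefore called lost on Day10 by summits against both earlier days, and kept under the overlap rule. The neighbouring region at 3.3 kb held a summit only in Day0 replicate 1, at rank 41842, and was covered by the peak of the region at 2.6 kb in the other Day0 library and on Day3.

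The region 6.5 kb into the gene, from 97895856 to 97896356, held a summit in all 6 libraries. It ranked 27781 and 29669 on Day0, 14570 and 16397 on Day3, and 5338 and 5491 on Day10. The ranks of the 3 days did not overlap, and both rules called it kept between every pair of days. The authors' fold was 26.8 and 26.0 on Day0, 31.7 and 30.6 on Day3, and 37.4 and 38.1 on Day10.

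Further into the gene the order was different. The region at 12.5 kb, from 97889798 to 97890298, ranked 20027 and 15240 on Day0 and 27386 and 28915 on Day3, and on Day10 it held no summit and was overlapped by peaks at ranks 45131 and 41223. It was called lost by summits on Day10 against each earlier day, and kept under the overlap rule. The peaks that covered it on Day10 had their summits less than 1 kb away, and the region around those summits, at 11.6 kb, was called gained under both rules against both earlier days. That region, from 97890753 to 97891253, ranked 138731 in Day0 replicate 1 and was unlisted in replicate 2, ranked 123122 and 123638 on Day3, and ranked 45131 and 41223 on Day10. The region at 14.4 kb held a summit at ranks 24997 and 25821 on Day0, at 27385 and 33601 on Day3, and at 21892 in Day10 replicate 1. In Day10 replicate 2 it lay in the peak of 17443 bases, at rank 19831.

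At the gene end the region at 29.6 kb, from 97872690 to 97873190, lay just beyond the span. No listed peak touched it in either Day0 library. In each, a peak began just outside the window, at 97873193 in replicate 1 and 97873212 in replicate 2. These Day0 peaks ranked 116510 and 86237, and the widest Day10 peak covered both. On Day3 peaks at ranks 75217 and 75879 overlapped the region, and on Day10 it held a summit at ranks 19932 and 19831. It was called gained on Day10 against Day0 under both rules, and was not called against Day3. The Day0 peak of replicate 2 would have barred the gained call from inside the window. That call thus depends on where the window ends. The summit of the widest Day10 peak thus lay past the gene end, at an authors' fold of 27.8 and 28.4.

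**Figure D4:**
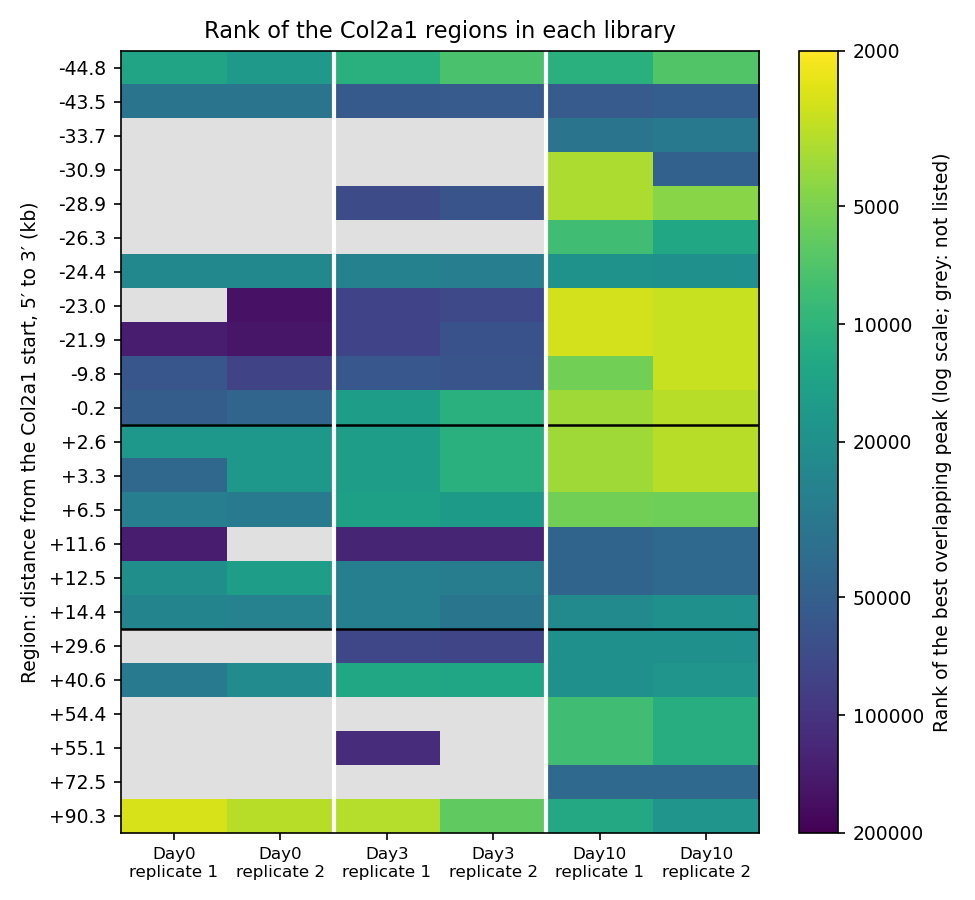
Rank of the best overlapping peak (colour, log scale, 1 is the strongest, grey where no peak is listed) for the 23 regions of the locus, in order from upstream of the Col2a1 start at the top to beyond its end at the bottom, in the 6 libraries. Black lines bound the regions within the gene. The region at +6.5 kb and those from there to -0.2 kb have better ranks on Day10 than on either earlier day. The same holds for some flanking regions, such as that at -9.8 kb. On Day10 the regions at +3.3, +2.6 and -0.2 kb share the rank of a single peak in each library, with its summit in the region at -0.2 kb. Several flanking regions are grey on Day0 and ranked on Day10.

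Over the locus, 8 of 23 regions, or 34.8%, were called gained on Day10 against Day0 by summits, while 12.0% of all regions of the genome were. Under the overlap rule 11 regions, or 47.8%, were gained, against 11.2% of all regions, and 7, or 30.4%, passed both rules, against 10.8%. By summits 2 regions, or 8.7%, were lost, against 10.0% of all regions, and 0 under the overlap rule, against 8.07%. The 2 regions lost by summits were those at 2.6 and 12.5 kb in the gene. No region was lost under both rules, against 7.98% of all regions. Kept regions numbered 5, or 21.7%, by summits, against 34.9%, and 9, or 39.1%, under the overlap rule, against 41.4%. No p-value was computed for these calls, and neighbouring regions under a single wide peak share its rank. On Day10 the lists were longer and the 50000 strongest peaks wider by median, and their part in these counts was not tested.

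Against Day3, 6 of 23 regions, or 26.1%, were gained on Day10 by summits, while 9.10% of all regions were. The overlap rule gave 7 gained, or 30.4%, against 8.07%. Both rules together gave 5 gained, or 21.7%, against 7.74%. The 2 regions lost by summits, or 8.7% against 4.59% of all regions, were again those at 2.6 and 12.5 kb. The overlap rule gave 0 lost, against 3.28%. Both rules together gave 0 lost, against 3.16%. Kept regions numbered 5, or 21.7%, by summits, against 37.9%, and 10, or 43.5%, under the overlap rule, against 45.0%.

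On Day3 against Day0, 0 regions were gained or lost under either rule. Over the genome, 1.17% of regions were gained and 1.73% lost by summits in that comparison, so few regions passed it anywhere. Under the overlap rule 0.597% were gained and 0.530% lost, and under both rules 0.539% and 0.516%. In the locus 8 regions, or 34.8%, were kept by summits, against 45.6% of all regions, and 9, or 39.1%, under the overlap rule, against 51.6%. The region at the start was not called on Day3. By summits no Day3 peak had its summit there, and under the overlap rule it ranked within 100000 on Day0 already.

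The flanks were more covered on Day10 as well. In the 10 kb past the gene end, listed peaks covered 3.04% and 3.21% of the bases on Day0, 14.4% and 13.8% on Day3, and 66.0% and 70.0% on Day10. In the 10 kb upstream of the start they covered 4.57% and 5.57% on Day0, 9.47% and 10.7% on Day3, and 36.7% and 37.7% on Day10. The 50000 strongest peaks covered 24.4% and 24.3% of the 10 kb past the end on Day10 and 0% on Day0 and Day3. Most of the cover past the gene end on Day10, on the side of Tmem106c, thus came from peaks outside the 50000 strongest.

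Upstream of the start, regions between -21.9 and -33.7 kb gave 6 of the 11 gains on Day10 against Day0 under the overlap rule. The region at -26.3 kb, from 97928611 to 97929111, was unlisted on Day0 and Day3 and ranked 8145 and 12731 on Day10. The region at -28.9 kb, from 97931204 to 97931704, was unlisted on Day0, was overlapped by peaks at ranks 68168 and 60126 on Day3, and ranked 3495 and 4570 on Day10. The region at -33.7 kb, from 97936013 to 97936513, was unlisted on Day0 and Day3 and ranked 33756 and 31267 on Day10. All 3 were gained against Day0 under both rules, and the region at -28.9 kb was not called against Day3.

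Other upstream regions were called under the overlap rule alone. A peak of about 3 kb on Day10 held the regions at -21.9 and -23.0 kb, with its summit in the second region in replicate 1, at rank 2737, and in the first in replicate 2, at rank 2952. On Day0 peaks at ranks 138732 and 151729 overlapped the region at -21.9 kb, and on Day3 peaks at ranks 79286 and 62945. The region at -30.9 kb was unlisted on Day0 and Day3 and its own summits ranked 51171 and 48093 on Day10. In replicate 1 the edge of the peak at -28.9 kb also reached its window, which gave rank 3495 under the overlap rule and with it the call. Amid these, the region at -24.4 kb stayed at ranks 23291 and 23294 on Day0, 26376 and 27889 on Day3, and 18987 and 19832 on Day10, and was kept between every pair of days.

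The region at -9.8 kb, from 97912143 to 97912643, was not called, although it ranked 5339 and 2951 on Day10. It and the other flanking regions that were kept or not called were chosen after their values were seen, to account for all 23. It ranked 57853 and 78379 on Day0 and 56994 and 60125 on Day3, which is better than the outer rank of 100000, and its authors' fold was 14.6 and 10.4 on Day0, 12.8 and 12.2 on Day3, and 37.4 and 40.9 on Day10.

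Beyond the gene end, the region at 55.1 kb was unlisted in both Day0 libraries and in Day3 replicate 2, ranked 111318 in Day3 replicate 1, and ranked 8144 and 11371 on Day10. The region at 72.5 kb was unlisted on Day0 and Day3 and ranked 41524 and 41222 on Day10. Both were gained under both rules against each earlier day. The region at 54.4 kb was gained under the overlap rule alone, at the same Day10 ranks of 8144 and 11371 as its neighbour, since in each library a single peak reached both windows. The region at 40.6 kb was kept, with ranks of 29748 and 21704 on Day0, 12609 and 13045 on Day3, and 19931 and 18068 on Day10.

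Some sites of the locus went the other way. The region at 90.3 kb, from 97812056 to 97812556, ranked 2657 and 3291 on Day0, 3329 and 6136 on Day3, and 12336 and 18067 on Day10, the poorest ranks on that day, and was still kept. The region at -43.5 kb ranked 33993 and 33882 on Day0, 54664 and 53021 on Day3, and 53309 and 50104 on Day10, so it left the 50000 strongest without being called lost. The region at -44.8 kb ranked between 7032 and 16617 in all 6 libraries and was kept.

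Almost all listed peaks of the earlier days were touched by a Day10 peak in the locus. All 28 and all 32 peaks of the Day0 libraries were touched by a listed peak in each Day10 library, while over the whole genome 80.5% to 81.4% of Day0 peaks were. Of the Day3 peaks, 50 of 50 in replicate 1 and 42 of 44 in replicate 2 were touched in each Day10 library, with 84.5% to 85.5% over the genome. In the other direction, 21 and 23 of the 115 peaks of Day10 replicate 1, or 18.3% and 20%, were touched by a peak of the Day0 libraries. For the 118 peaks of Day10 replicate 2 these numbers were 20 and 21, or 16.9% and 17.8%. Over the whole genome 33.7% to 34.8% of Day10 peaks were touched by a Day0 peak. Between the Day10 libraries, 104 of 115 and 101 of 118 peaks were touched, or 90.4% and 85.6%, against 89.3% and 85.1% over the genome. The Day10 lists are longer and their Col2a1 peaks wider, and the part of this in these counts was not tested.

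The 6 libraries were then compared by the bases of the locus that their 50000 strongest peaks covered. These were 6921 and 7470 bases on Day0, 10064 and 10480 on Day3, and 45594 and 46267 on Day10. The mean on Day10 was 6.38 times that on Day0 and 4.47 times that on Day3, and the mean on Day3 was 1.43 times that on Day0. In each comparison the groups did not overlap, and an exact two-sided permutation test gave p = 0.333, which 2 against 2 libraries cannot go below. The Jaccard index, the shared part of the covered bases, was 0.813 for the pair of Day0 lists, 0.888 for the Day3 pair and 0.928 for the Day10 pair. It averaged 0.138 between Day10 and Day0, 0.209 between Day10 and Day3, and 0.608 between Day3 and Day0. Of 15 ways of pairing the libraries, pairing by day gave the highest mean index, 0.876, and the next gave 0.716. This gives p = 0.067 by an exact one-sided permutation test, which cannot go lower with 15 pairings.

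The stretches most like the locus were sought among 15453 tiles of its length on chromosomes 1 to 19 and X, by the Euclidean distance between the 6 values of bases covered by the 50000 strongest peaks. The closest lay on chromosome 4 from 63070372 to 63240372, at a distance of 9724 bases. It had 10010 and 11169 bases covered on Day0, 12770 and 12088 on Day3, and 38507 and 42921 on Day10. The next were on chromosome 5 from 33830200 to 34000200, at a distance of 11811 bases, and on chromosome 9 from 110500651 to 110670651, at 14310 bases. A stretch on chromosome 8 from 106930630 to 107100630 followed at 14933 bases, and it contains the tile on that chromosome described above. The last of the 5 lay on chromosome 11 from 116960689 to 117130689, at 17516 bases. In all 5 the cover on Day10 was below that of the Col2a1 locus in both libraries. On Day10, 2 and 3 of the tiles were at least as covered as the locus in replicates 1 and 2, against 1257 and 1086 tiles on Day0.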

How the data were processed

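The authors deposited 1 narrowPeak list per library, so replicates were not pooled. The deposited files hold, for each peak, its position and summit and the authors' own score, their ratio or fold over background, and -log10 values of p and of q. The submitters' processing notes name Trim Galore and mm10. The lists hold sequence names such as MU069435.1, which belong to GRCm39, so positions were read as GRCm39 and are counted from 1. For the aligner, the peak caller and any Tn5 read shift, the answer is not given in the sources used here. Peak names carry the word lysis for Day3 and for no other day, and the Day10 lists alone have smaller minimum widths, so separate handling of these libraries and the day cannot be told apart.

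The 6 libraries were grouped by their titles. The members, lists and rules were chosen with earlier results of these data known. Peaks on chromosomes 1 to 19, X and Y were ranked by -log10 p, then fold, then position, and of overlapping windows the better ranked was kept, with Python 3.11.15, pandas 2.3.3 and numpy 2.4.6. The rank rules were tested on simulated lists of narrow, separate peaks. Those lists held no wide or merging peaks like those at Col2a1 on Day10. Named were the regions called gained or lost, those in the gene or within 5 kb of its start among the 50000 strongest, and the 5 stretches most alike. With 2 lists per day, every p-value given is the lowest that its number of arrangements allows, so it does not measure a spread. The spread between the libraries of a day may be technical. The lists of other genes of the collagen pathway, and exon positions, need an annotation of the build and were not run.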

Additional observations from a re-analysis of the deposited data

How the results depend on the processing

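The share of the Col2a1 span covered kept its direction, and stayed within 1.5 times, with the 50000 strongest peaks or a -log10 q of 5 or 10 or more, settings chosen after the data were seen. So did the covered bases with 30000 or 75000 peaks and the Jaccard pairing in every setting. The ratio of listed peaks on Day3 over Day0 turned to 0.8 with the 50000 strongest peaks. The ratio on Day10 over Day0 was 2.59 at a -log10 q of 10 or more, 1.65 with the 50000 strongest and 2.21 in the gene with 10 kb on each side, where the ratio on Day10 over Day3 was 1.29. Counts of called regions moved most. The number of regions in the locus changed with the setting too. With the 30000 strongest and an outer rank of 60000, 5 of 17 regions were gained on Day10 against Day0, beside 8 of 23 in the main setting. With the 75000 strongest and an outer rank of 150000, 15 of 39 regions were gained, 4 lost and 8 kept against Day0. Against Day3 12 were gained, 4 lost and 8 kept, and on Day3 against Day0 1 was gained and 1 lost. Shares over the genome are not given for either setting. Nor are they given below for other window widths, for no gap between ranks or without 1 library. Whether the counts in these settings exceed the share over the genome therefore cannot be told. Under the overlap rule 0 were lost on Day10, with 9 kept against Day0 and 10 against Day3. Narrower windows gave 24 regions, with 3 kept on Day10 against either day and 1 lost on Day3. Wider windows gave 20 regions, with 5 gained on Day10 against Day0. Dropping the gap between ranks gave 1 lost on Day3. Without 1 library, 0 to 1 regions were lost on Day3, the 1 without Day0 replicate 2. The cause of these moves was not tested. Taking same-numbered libraries as pairs (replicate block, added after the data were seen) gave ratios of covered bases of 1.43, 6.39 and 4.47 for Day3 over Day0, Day10 over Day0 and Day10 over Day3. The exact two-sided sign-flip permutation p was 0.5 for each, the smallest that 2 pairs allow. Over 15453 tiles the deviations of same-numbered libraries correlated at 0.013, 0.020 and -0.043. Whether same-numbered libraries shared a culture or handling was not tested. The region calls come from no test and were not paired. The number of reads behind a peak was not used, so precision rests on the 2 libraries of a day.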
